A study of Ovis aries with 62 samples.

Results

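The keratins *KRT78* and *KRT13* were followed in the ventral rumen wall of 62 AUS sheep, as 2 of the 16011 genes measured there by RNA sequencing. They were chosen by name, through the gene IDs that the study pairs with these symbols (ENSOARG00000016800 for *KRT78* and ENSOARG00000016951 for *KRT13*), and both were measured in every library. *KRT13* carries a symbol only because the study listed it among genes picked for their relation with the mean retention time of feed in 20 of these sheep. Retention time was not analysed here.

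Keratins are the intermediate filament proteins of epithelial cells, and a filament is built from pairs of a type I and a type II keratin. *KRT78* encodes a type II keratin, known in other mammals from the differentiated layers of stratified epithelia such as the mouth and oesophagus. *KRT13* encodes a type I keratin, known in human from the suprabasal cells of the same internal linings. The rumen is lined by a stratified epithelium whose outer cells cornify, and beneath it lie connective tissue and layers of smooth muscle, so that a full-thickness sample holds all of them. In the sheep annotation ARS-UI_Ramb_v3.0, *KRT78* has *KRT8*, *KRT79* and *KRT4* among its nearest neighbours, which belong to the type II keratin cluster. *KRT13* lies beside *KRT36*, *KRT15* and *KRT19*, in the type I keratin cluster.

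Each sheep gave 1 library of the whole ventral rumen wall. All were adult Merino ewes fed the same mix of lucerne and oat chaff at the same feeding level, and none had a further treatment. They were tested in 4 blocks, which are test periods, with 16 sheep each in blocks 1, 2 and 4 and 14 in block 3. Live weight, CH4 production and DMI (dry matter intake) came from the sample labels, and CH4 yield is CH4 production over DMI. Each *p* measures the spread between sheep. By the study's account the ewes came from 4 sires, so many of them shared a sire. The labels do not give the sire, and no test accounts for it.

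The libraries held 4208032 to 12130080 assigned reads, with a median of 6812019 in block 1 and 8567270 in blocks 2 to 4, and 15 of the 16 libraries of block 1 were below the median of blocks 2 to 4. Muscle content was expressed as the mean log2 CPM (the log2 of reads scaled to a common library size) of 647 genes that the study had clustered as muscle genes in these libraries. This muscle mean was 6.24 ± 0.33 in block 1 (SD, *n* = 16) and 5.82 ± 0.33 in blocks 2 to 4 (*n* = 46). The smooth muscle marker *MYH11* averaged 13.53 log2 CPM, and the suprabasal marker *DSG3*, a desmosomal cadherin, averaged 11.71, so both the muscle and the epithelium of the label were represented. No marker of basal epithelium, endothelium or immune cells could be matched to a gene ID. In bulk tissue, fewer cells of a type and less RNA per cell cannot be told apart. Keratin genes are close paralogues and only uniquely mapped reads were counted, so reads that fit more than one of them are not in these values and both levels carry that uncertainty.

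*KRT78* was lower and far more variable in block 1 than in the other blocks. Its level was lowest at 6.99, had a median of 10.48 and was highest at 12.34 log2 CPM in block 1 (*n* = 16), and was lowest at 11.11, had a median of 11.77 and was highest at 12.55 in blocks 2 to 4 (*n* = 46). In block 1 this range ran over 40.6-fold, between 127 and 5173 CPM, while the 46 sheep of blocks 2 to 4 all lay within 2.71-fold of each other. Of the 16 sheep of block 1, 11 were below the lowest sheep of blocks 2 to 4, and 13 were below the median of those blocks. At least as many sheep of block 1 were below the lowest sheep of the other blocks for 0.275% of the 16011 genes.

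The sheep with the lowest *KRT78* were oz171 with 6.99, oz89 with 7.36, oz93 with 7.77 and oz125 with 8.70 log2 CPM, and all belonged to block 1. Their libraries held 4754572 to 5835938 reads, on the shallow side of the series, yet 827 to 2277 reads came from *KRT78* in each. Their muscle means ran from 6.28 to 6.61. The highest level of block 1, in oz10, was the third highest of the 62 sheep.

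*KRT78* averaged 10.13 ± 1.64 in block 1 and 11.75 ± 0.33 in blocks 2 to 4 (SD, *n* = 16 and 46). The difference of -1.62 log2 (SE 0.24) passed the test over all genes in limma (adjusted *p* = 4.7e-07), and 19.3% of all genes were called lower in block 1 by the same rule. The study had already found its epithelial differentiation genes lower in block 1 of these sheep. That list holds *KRT78*, so the tests of this difference are not independent of the choice of block 1. Limma takes equal variances, which *KRT78* does not have, and a permutation test of the Welch statistic gave *p* = 0.00031. With the muscle mean as a covariate the difference was -1.04 (SE 0.24, limma adjusted *p* = 0.00188), where 7.05% of genes were called lower, and with log2 depth as a covariate it was -1.46 (SE 0.26, adjusted *p* = 3.24e-05). Muscle content and depth were not the same in the blocks, and their part in the difference beyond these fits was not tested.

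Among the other blocks no difference in *KRT78* was detected. Block 2 averaged 11.68 ± 0.34 (*n* = 16), block 3 averaged 11.75 ± 0.38 (*n* = 14) and block 4 averaged 11.83 ± 0.28 (*n* = 16), steps that are smaller than the SD within a block. Over all 4 blocks the limma *F* was 14.4 (adjusted *p* = 1.44e-05), a test that 26.5% of genes passed. Without block 1 it was 0.808 (adjusted *p* = 0.918), a test that 0.00625% of genes passed.

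**Figure D1:**
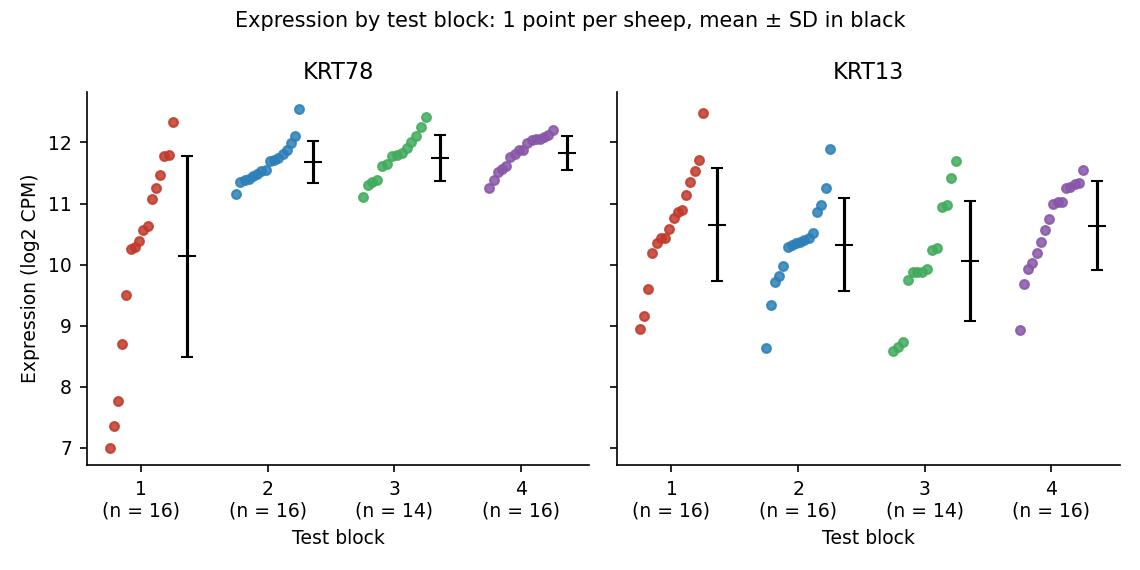
Expression (log2 CPM, vertical axis) of *KRT78* (left) and *KRT13* (right) in each test block, with 1 point per sheep sorted by value and the mean ± SD in black. The *KRT78* levels of block 1 stretch from 6.99 to 12.34 against 11.11 to 12.55 in blocks 2 to 4, while the *KRT13* levels of all blocks overlap.

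*KRT13* did not share this pattern. Its lowest, median and highest levels were 8.95, 10.67 and 12.48 log2 CPM in block 1 (*n* = 16), and 8.58, 10.36 and 11.89 in blocks 2 to 4 (*n* = 46), so that the groups overlapped almost throughout. Only oz10, the sheep of block 1 with the highest *KRT78*, exceeded every sheep of the other blocks, and 11 of the 16 sheep of block 1 were above the median of those blocks. *KRT13* averaged 10.65 ± 0.92 in block 1 and 10.35 ± 0.84 in blocks 2 to 4 (SD). The difference of 0.30 log2 (SE 0.24) did not pass in limma (adjusted *p* = 0.336). It was 0.27 (SE 0.28, adjusted *p* = 0.565) with the muscle mean as a covariate.

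Block 4 had the highest median of *KRT13* and block 3 the lowest, with medians of 10.87 and 9.91 log2 CPM. Block 2 averaged 10.32 ± 0.76, block 3 averaged 10.06 ± 0.98 and block 4 averaged 10.64 ± 0.73 log2 CPM (SD). The *F* over the 4 blocks was 1.79 (limma adjusted *p* = 0.294). The lowest levels of the series were spread over blocks, with 8.58 in oz197, 8.66 in oz70 and 8.73 in oz200 of block 3, 8.63 in oz1 of block 2, 8.93 in oz214 of block 4 and 8.95 in oz165 of block 1.

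The spread of each keratin was compared between the blocks. The SD of *KRT78* was 4.92 times as large in block 1 as in blocks 2 to 4, in a permutation test of absolute deviations from the group medians (2-sided *p* = 1e-05, the smallest that 100000 permutations can give). A ratio at least this high was found for 0.0437% of genes, and the median ratio over all genes was 1.06. For *KRT13* the ratio was 1.10 (permutation *p* = 0.826). In blocks 2 to 4, *KRT78* was the steadier of the keratins, with an SD of 0.399 times that of *KRT13* (permutation *p* = 2e-05, adjusted *p* = 4.8e-05 over 12 tests). In block 1 its SD was 1.78 times that of *KRT13*, which did not pass (permutation *p* = 0.076). Fitting out the muscle mean with 1 slope for all sheep left a ratio between blocks of 2.78 for *KRT78* (permutation *p* = 0.00364). That slope was -1.97 in limma, against -0.72 without block 1, so it is too steep for blocks 2 to 4. The smaller ratio is thus no measure of the part of muscle content in the spread, and separate slopes were not fitted.

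A level cannot be compared between genes of different length, but the log2 ratio of *KRT78* to *KRT13* within a library can be compared between sheep. In block 1 the ratio ran from -2.99 to 1.31 with a median of -0.50, and in blocks 2 to 4 from -0.29 to 3.27 with a median of 1.37. Every one of the 16 sheep of block 1 was below the median of blocks 2 to 4, and 9 were below their lowest sheep. *KRT78* gave more CPM than *KRT13* in 4 of 16 sheep of block 1 and in 42 of 46 sheep of blocks 2 to 4. The mean ratio was -0.52 ± 1.27 in block 1 and 1.40 ± 0.92 in blocks 2 to 4 (SD), a difference of -1.92 (SE 0.35, permutation *p* = 1e-05, adjusted *p* = 3e-05 over 12 tests). In residuals from a fit on the muscle mean alone, the difference was -0.98 (SE 0.30, permutation *p* = 0.00057). That fit had no block term, and the muscle mean was higher in block 1, so it can also take out part of the block difference. With block 1 and the muscle mean in the same limma fit, the differences were -1.04 for *KRT78* and 0.27 for *KRT13*.

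Across sheep the keratins bore no common relation to each other. Over the 62 sheep, *KRT78* and *KRT13* had *r* = 0.135 (permutation *p* = 0.295) and rho = -0.0194 (permutation *p* = 0.882), and without oz171 and oz89, the sheep farthest from the median of *KRT78*, *r* was -0.0238. Within blocks the relation took different signs. It was positive in block 1 (*r* = 0.638, rho = 0.706, *n* = 16, permutation *p* = 0.00818 and 0.00322, adjusted *p* over 4 blocks 0.0195 and 0.0129) and negative in block 4 (*r* = -0.627, rho = -0.559, *n* = 16, permutation *p* = 0.00974 and 0.0268, adjusted *p* 0.0195 and 0.0535). It was near 0 in block 2 (*r* = 0.00895, permutation *p* = 0.973) and weak in block 3 (*r* = 0.163, permutation *p* = 0.575).

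In block 1 the sheep oz171 and oz89 were low in both keratins, with 9.60 and 9.16 log2 CPM of *KRT13*, and oz10 was the highest in both. Sheep oz93, with the third lowest *KRT78*, had 10.76 log2 CPM of *KRT13*, above the block's median, and oz165, with 10.25 of *KRT78*, had the block's lowest *KRT13* of 8.95. In block 4, oz175 had the lowest *KRT78* (11.25) and the highest *KRT13* (11.55), while oz214 had the lowest *KRT13* (8.93) beside 12.05 of *KRT78*. Without the 2 sheep farthest from the block's median of *KRT78*, *r* was 0.441 in block 1 (permutation *p* = 0.117) and -0.570 in block 4 (permutation *p* = 0.0334, *n* = 14 each), so the relation in block 1 rests in part on oz171 and oz89. The difference between the 4 blocks' correlations passed a permutation test of their heterogeneity (*p* = 0.00526, adjusted *p* = 0.0105 over 12 tests). Without block 1 it did not (*p* = 0.0586).

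**Figure D2:**
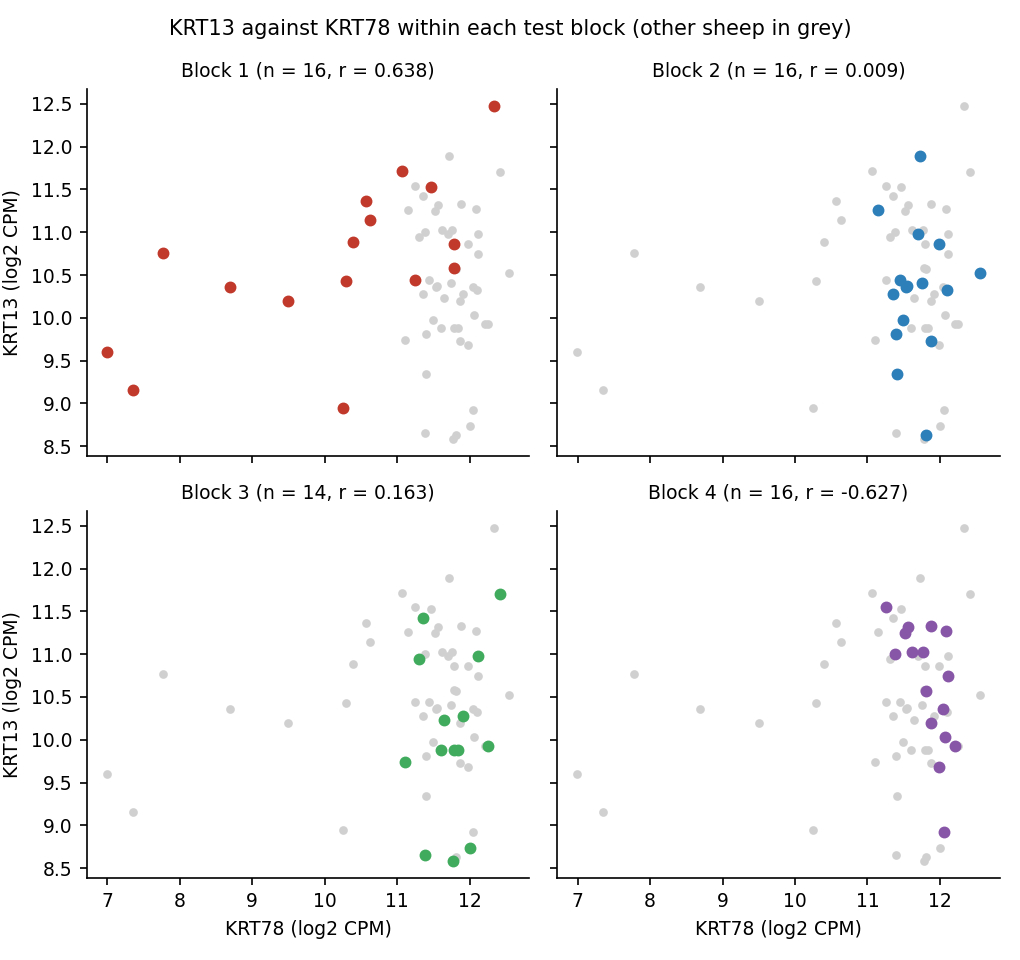
*KRT13* (vertical axis) against *KRT78* (horizontal axis), both in log2 CPM, with the sheep of 1 block in colour in each panel and all others in grey. The points rise together in block 1 (*r* = 0.638) and run the opposite way in block 4 (*r* = -0.627), where *KRT78* spans a much narrower range.

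Over all sheep, *KRT78* fell with muscle content, and no such fall was detected for *KRT13*. In limma, *KRT78* was lower by 1.97 log2 per unit of the muscle mean (slope -1.97, SE 0.28, adjusted *p* = 9.44e-09), a test in which 29.0% of genes were called lower. The slope of *KRT13* was 0.23 (SE 0.28, adjusted *p* = 0.498). The slope of *KRT78* was steepest through the low sheep of block 1, since it was -0.72 (SE 0.11, adjusted *p* = 4.25e-07) without that block, where 19.6% of genes were called lower. With block as a term it was -1.36 (SE 0.29, adjusted *p* = 7.42e-05).

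The relation of *KRT78* with the muscle mean was negative in every block. Over the 62 sheep, *r* was -0.661 and rho was -0.764 (permutation *p* = 1e-05 for each), and leaving out the sheep with the 2 muscle means farthest from the median gave *r* = -0.659. Within blocks 1, 2, 3 and 4, *r* was -0.656, -0.785, -0.693 and -0.632, with adjusted permutation *p* over the 4 blocks between 0.00132 and 0.00895. The *r* of block 4 was -0.404 (permutation *p* = 0.152, *n* = 14) without oz97 and oz175, its sheep farthest from the median muscle mean, while the *r* of blocks 1, 2 and 3 was between -0.690 and -0.630 after the same step. A difference between the blocks' correlations was not detected (permutation *p* = 0.817).

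*KRT13* had *r* = 0.102 (permutation *p* = 0.427) and rho = 0.152 (permutation *p* = 0.238) with the muscle mean over the 62 sheep. Within blocks its relation took both signs, and *r* was -0.479, 0.0999, 0.210 and 0.542 in blocks 1, 2, 3 and 4. None of the 4 passed on its own after adjustment (lowest adjusted permutation *p* = 0.12, lowest unadjusted *p* = 0.0301). The difference between the blocks passed (permutation *p* = 0.0131, adjusted *p* = 0.0224 over 12 tests), but not without block 1 (*p* = 0.236). The log2 ratio of *KRT78* to *KRT13* fell with the muscle mean over all sheep (*r* = -0.629, rho = -0.623, permutation *p* = 1e-05 for each), and *r* was negative within each block, between -0.616 and -0.415. Only the *r* of block 4 passed after adjustment over the 4 blocks (adjusted permutation *p* = 0.0463, and 0.0999 to 0.109 in the others). Without the 2 sheep farthest from each block's median muscle mean, *r* of the ratio was between -0.448 and -0.314 (permutation *p* between 0.107 and 0.319).

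**Figure D3:**
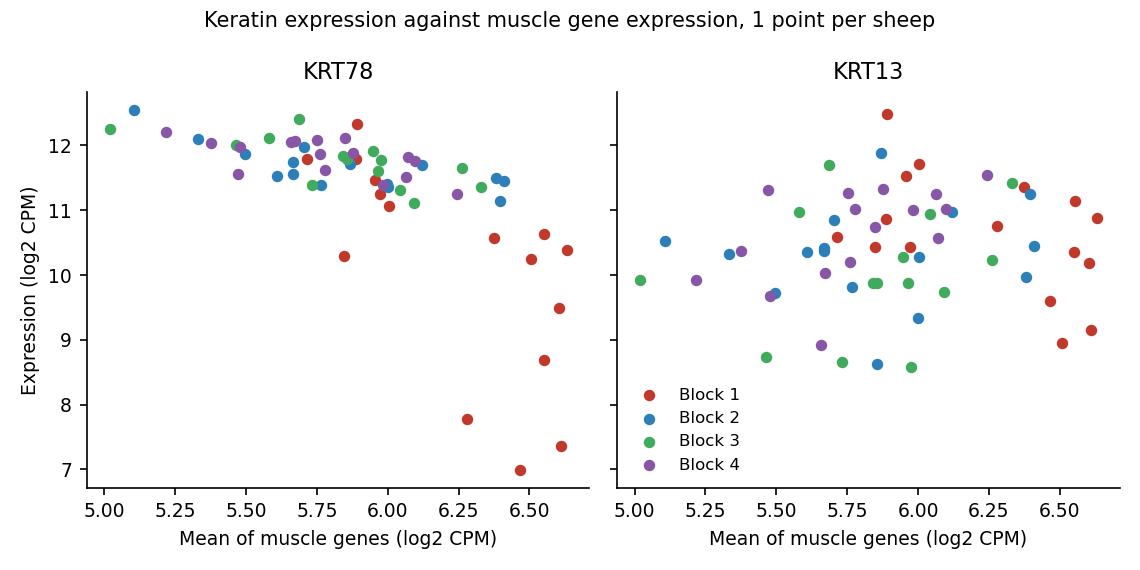
Expression of *KRT78* (left) and *KRT13* (right) in log2 CPM against the mean log2 CPM of 647 muscle genes, with 1 point per sheep and blocks in colour. *KRT78* falls with muscle gene expression (*r* = -0.661), and the lowest sheep of block 1 lie far below the other blocks, while *KRT13* scatters widely (*r* = 0.102).

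Neither keratin was related to a trait at the threshold. Per kg/d of DMI, *KRT78* was lower by 1.15 log2 (slope -1.15, SE 0.47, *n* = 61, limma unadjusted *p* = 0.017, adjusted *p* = 0.307), and this was the only one of 8 relations with an unadjusted *p* under 0.05 in limma. With block as a term its slope was -0.46 (SE 0.42, unadjusted *p* = 0.274), and then only *KRT78* on live weight had an unadjusted *p* under 0.05. No gene of the table passed for DMI in limma (0.00%, with 1899 genes at an unadjusted *p* under 0.05). The correlation of *KRT78* with DMI was *r* = -0.294 (permutation *p* = 0.0209, adjusted *p* = 0.167 over 8 relations) with rho = -0.202 (permutation *p* = 0.118). It was negative only within block 1 (*r* = -0.426), and *r* was 0.0154, 0.384 and 0.0914 within blocks 2, 3 and 4.

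With CH4 yield, *KRT78* had a slope of 0.0674 log2 per g/kg (SE 0.0415, *n* = 61, limma adjusted *p* = 0.602) and *KRT13* a slope of -0.0195 (SE 0.0325, adjusted *p* = 0.865). For *KRT78*, *r* was positive only within block 1 (*r* = 0.325) and was between -0.268 and -0.209 within the other blocks. Again no gene of the table passed (0.00%, with 1521 genes at an unadjusted *p* under 0.05). With block as a term the slope of *KRT78* on CH4 yield was 0.0037 (SE 0.0366, limma unadjusted *p* = 0.92). Per g/d of CH4 production, the slopes were -0.0407 for *KRT78* (SE 0.0291, adjusted *p* = 0.751) and -0.0262 for *KRT13* (SE 0.0225, adjusted *p* = 0.803), where 0.0125% of genes passed.

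Per kg of live weight, *KRT78* had a slope of -0.0252 log2 (SE 0.0165, *n* = 62, limma adjusted *p* = 0.757) and *KRT13* of -0.0140 (SE 0.0128, adjusted *p* = 0.86), where 0.0187% of genes passed. With block as a term the slope of *KRT78* was -0.0336 (SE 0.0130, limma unadjusted *p* = 0.0123, adjusted *p* = 0.359). This was the only trait with which *KRT78* had the same sign in every block, with *r* = -0.437, -0.243, -0.518 and -0.0494 in blocks 1 to 4. Over all sheep *r* was -0.187 (permutation *p* = 0.143, adjusted *p* = 0.369 over 8 relations) and rho -0.09. For *KRT13* the slope on DMI was -0.13 log2 per kg/d (SE 0.38, *n* = 61, limma adjusted *p* = 0.919).

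Over all sheep, *KRT78* moved with a large group of genes and *KRT13* with few. The correlations with other genes are given as descriptions, since all genes share the same libraries and depth. Over the 62 sheep, 248 of the other 16010 genes (1.55%) had *r* above 0.8 with *KRT78*, and 610 had *r* below -0.6. No gene had *r* above 0.8 with *KRT13*, whose highest *r* was 0.57, and none had *r* below -0.6. Within single blocks, *r* with *KRT78* was above 0.8 for 547 genes (3.42%), 39 (0.244%), 30 (0.187%) and 17 (0.106%) in blocks 1, 2, 3 and 4, with 14 to 16 sheep in each. For *KRT13* these counts were 10 (0.0625%), 0 (0.00%), 4 (0.0250%) and 10 (0.0625%). The count for *KRT78* was largest in block 1, where its SD was also largest, and the difference in counts was not tested. In the pooled blocks 2 to 4 (*n* = 46) 1 gene (0.00625%) was above 0.8 with *KRT78*, and 86 genes (0.537%) were over all sheep after block means were removed.

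Among genes with a symbol, *DUSP14*, a phosphatase that acts on MAP kinases, followed *KRT78* most closely, with *r* = 0.973 over the 62 sheep, 0.978 in block 1 and 0.773 in blocks 2 to 4. The next were *GCNT3*, an enzyme of mucin glycosylation (*r* = 0.955), *ENDOU*, an endoribonuclease (*r* = 0.954), *PROSER2* (*r* = 0.953), *MAL*, a protein of apical membrane transport (*r* = 0.951), and *PRKCH*, a protein kinase C form of differentiating epithelium (*r* = 0.933). They were followed by the membrane serine protease *TMPRSS11B* (*r* = 0.926), the protein disulfide isomerase *P4HB* (*r* = 0.921), the keratinocyte lipase *LIPN* (*r* = 0.921) and *C17orf47* (*r* = 0.92). In blocks 2 to 4 all 10 stayed positive, between 0.504 for *LIPN* and 0.773 for *DUSP14*. There *DUSP14* remained the highest named gene and *EHF*, an ETS transcription factor of epithelia, was second (*r* = 0.733).

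As genes chosen for their likeness to *KRT78* over all sheep, these share its difference between blocks by that choice, and it is given as a value only: -1.59 log2 in block 1 for *DUSP14* and -2.21 for *LIPN*. Among genes with a symbol, the lowest correlations with *KRT78* were those of *ZFHX3*, a zinc finger and homeobox transcription factor (*r* = -0.819), the transcription factor *NFIC* (*r* = -0.812), *TRIO*, an exchange factor for small GTPases (*r* = -0.805), *SRRM2*, a protein of the splicing machinery (*r* = -0.803), and *YLPM1* (*r* = -0.8).

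*LY6D*, a surface protein of stratified epithelia, had the highest *r* of all genes with *KRT13*, at 0.57 over the 62 sheep, 0.818 in block 1 and 0.44 in blocks 2 to 4, and its *r* with *KRT78* was 0.0729. Over all genes, 45 had *r* above 0.4 with *KRT13*, and only *LY6D* and the next 2 named here have a symbol among them. Among genes with a symbol, *FAM198B* (*r* = 0.455) and a signal recognition particle RNA listed as *Metazoa_SRP* (*r* = 0.423) came next. The collagens *COL1A2* (*r* = 0.398), *COL14A1* (*r* = 0.372) and *COL3A1* (*r* = 0.341) and the matrix protein *EFEMP1* (*r* = 0.339) were among the first 10 named genes, as were *FAM83D*, a protein of the mitotic spindle (*r* = 0.386), the mitotic kinase *PLK1* (*r* = 0.368) and the histone gene *HIST1H2AL* (*r* = 0.344).

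These relations of *KRT13* were weak and differed between block 1 and the rest, but that difference was not tested. *PLK1* had *r* = 0.735 in block 1 and 0.163 in blocks 2 to 4, whereas *COL1A2* had *r* = 0.214 in block 1 and 0.455 in blocks 2 to 4. Among genes with a symbol, the lowest correlations with *KRT13* included 4 genes of the study's type I interferon list, which were *ZNFX1* (*r* = -0.394), *TAP1* (*r* = -0.365), *EIF2AK2* (*r* = -0.354) and *PSMB8* (*r* = -0.336), and *CYP26A1*, which degrades retinoic acid (*r* = -0.364). Over the 62 sheep, all 16 genes of the interferon list had a negative *r* with *KRT13*, with a median of -0.269, beside a median of 0.00618 over all genes. Within blocks 1, 2, 3 and 4 their median was -0.366, -0.0901, -0.287 and -0.336, with 2, 6, 0 and 0 of the 16 positive. Of the 100 genes most correlated with each keratin over 62 sheep, 0 were shared, and 6 (6% of each list) were shared within block 1. Lists of 100 are small beside 16010 genes, so unrelated lists would also share few or none. The overlap was not tested.

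**Figure D4:**
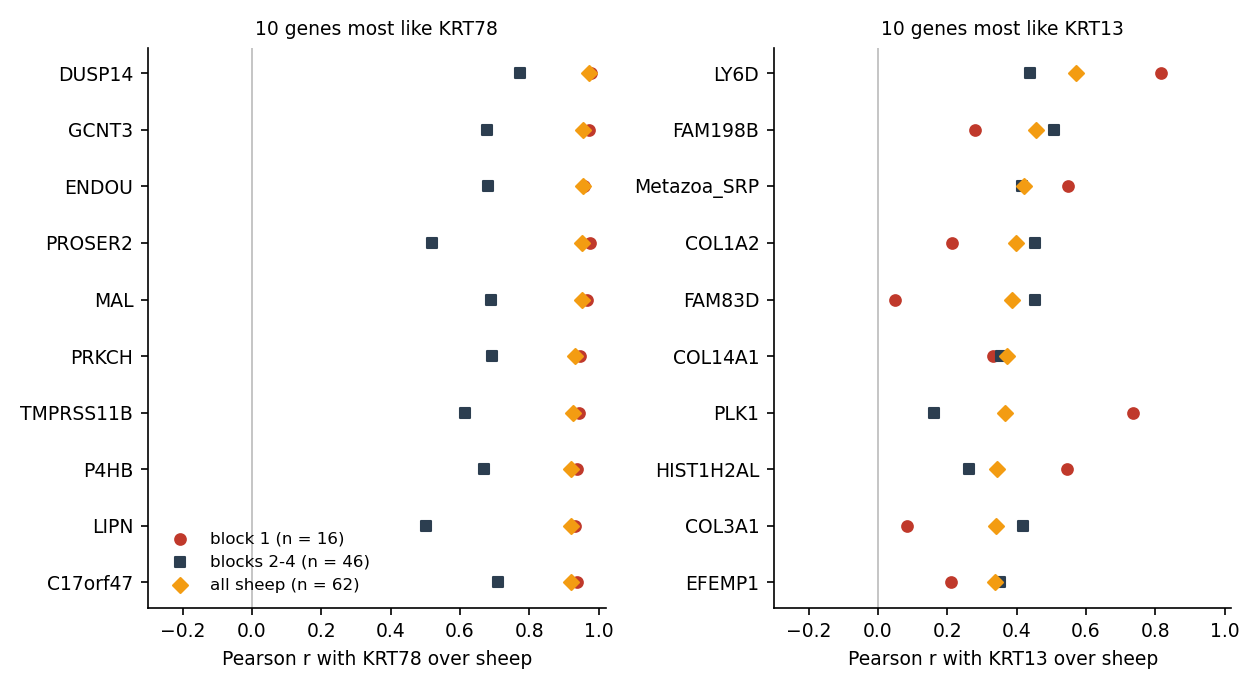
Pearson's *r* (horizontal axis) of the 10 named genes most like *KRT78* (left, *r* with *KRT78*) and of the 10 most like *KRT13* (right, *r* with *KRT13*), in block 1 (circles), blocks 2 to 4 (squares) and all sheep (diamonds). The genes on the left lie at 0.92 or more (rounded) over all sheep and between 0.504 and 0.773 in blocks 2 to 4, while on the right only *LY6D* exceeds 0.5 over all sheep.

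Genes of the cornified envelope, the protein and lipid shell of the outermost epithelial cells, followed *KRT78* in block 1 and more weakly in blocks 2 to 4, and their correlations with *KRT13* were positive in block 1 and of both signs in blocks 2 to 4. These differences between blocks were not tested. This list was 28 genes written down, together with every symbol that starts with SPRR or PRD-SPRR. In all, 18 genes were matched to a gene ID, and every one of these is in a list that the study drew from such data. The SPRR and PRD-SPRR models among the 18 came in by the start of their symbol, so fewer than 18 of the 28 were matched. Except for *KRTDAP*, *LIPN* and *SPRR-like*, they are in the epithelial differentiation list, which holds *KRT78* itself. The match can thus favour genes that vary with *KRT78*, and the unmatched genes were not seen. All 18 had a positive *r* with *KRT78* over the 62 sheep, with a median of 0.667, and the median was 0.891 in block 1 and 0.353 in blocks 2 to 4. With *KRT13* the median was 0.109 over the 62 sheep, 0.601 in block 1 and -0.0463 in blocks 2 to 4. All 18 were positive in block 1, and 7, 13 and 1 were in blocks 2, 3 and 4, with medians of -0.0635, 0.0834 and -0.205. The crosslinking enzyme *TGM1* had *r* = 0.879 with *KRT78* and 0.0142 with *KRT13*. Of the 18 genes, 13 were lower and 0 were higher in block 1 (limma adjusted *p* under 0.05, beside 19.3% of all genes called lower), with a median difference of -0.63 log2 beside -0.01 over all genes. With the muscle mean as a covariate 5 were lower, beside 7.05% of all genes, with a median of -0.36. *PRD-SPRRII*, a gene model of the small proline-rich protein family, differed by -1.65 log2 (SE 0.28, limma adjusted *p* = 3.94e-06), and *TGM1* by -0.63 (SE 0.13, adjusted *p* = 0.00015).

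The junction genes *PERP*, *PCDH1*, *CDH1* and *DSG3*, which encode adhesion proteins of epithelial cells, were the 4 matched of 20 written down. *CDH1* and *PCDH1* are in the study's epithelial differentiation list with *KRT78*, and *PERP* and *DSG3* are in one of its metabolism lists. Symbols came from the study's tables, so the match can favour genes that vary with *KRT78*. The median *r* of these 4 genes with *KRT78* was 0.797, between 0.650 for *CDH1* and 0.833 for *PERP*, and all 4 were lower in block 1 (median -0.38 log2, limma adjusted *p* under 0.05, beside 19.3% of all genes). With the muscle mean as a covariate only *PERP* was lower (-0.21 log2, limma adjusted *p* = 0.0254), and the median was -0.10. With *KRT13* their median *r* was 0.511 in block 1 and -0.544 in block 4. Of the epidermal transcription factors, 3 of 15 were matched: *PRDM1* had *r* = 0.843 and *OVOL1* *r* = 0.626 with *KRT78*, and both were lower in block 1 (by -0.65 and -0.35 log2, limma adjusted *p* = 0.000224 and 0.00857). With the muscle mean as a covariate *PRDM1* differed by -0.45 (limma adjusted *p* = 0.0408) and *OVOL1* by -0.07 (adjusted *p* = 0.715). *ZNF750* had *r* = -0.0801 with *KRT78* and differed by 0.15 log2 in block 1 (adjusted *p* = 0.417). *PRDM1* and *OVOL1* are also in the epithelial differentiation list, while *ZNF750* is in none of the study's lists used here.

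The 12 smooth muscle markers ran against *KRT78* in every block. Their median *r* with *KRT78* was -0.461 over the 62 sheep, with 0 of 12 positive in any block, and 12 of 12 were higher in block 1 (median 0.56 log2, limma adjusted *p* under 0.05, beside 17.2% of all genes). With the muscle mean as a covariate 0 were higher and 2 were lower in block 1. With *KRT13* their median *r* was -0.299 in block 1, where 0 of 12 were positive, and 0.113, 0.365 and 0.636 in blocks 2, 3 and 4, where all 12 were positive in each. The 5 fibroblast markers had a median *r* over the 62 sheep of -0.456 with *KRT78* and 0.301 with *KRT13*. In block 1 these medians were -0.331 and -0.0545, with 2 of the 5 positive for each keratin. In the pooled blocks 2 to 4 they were -0.483 and 0.385, with 0 and 5 positive. All 12 smooth muscle markers and all 5 fibroblast markers are also in the study's muscle list.

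The 43 genes of the study's cell cycle list, which mark dividing cells, had positive correlations with *KRT13* in blocks 1 and 2. Their median *r* with *KRT13* was 0.534 and 0.234 in these blocks, where all 43 were positive, and -0.0762 and -0.0385 in blocks 3 and 4, where 11 and 20 were positive. With *KRT78* it was 0.362, 0.509, 0.0887 and 0.106 in blocks 1 to 4. These lists were drawn by the study from rumen libraries that include or resemble these, so they are no independent evidence of a direction.

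**Figure D5:**
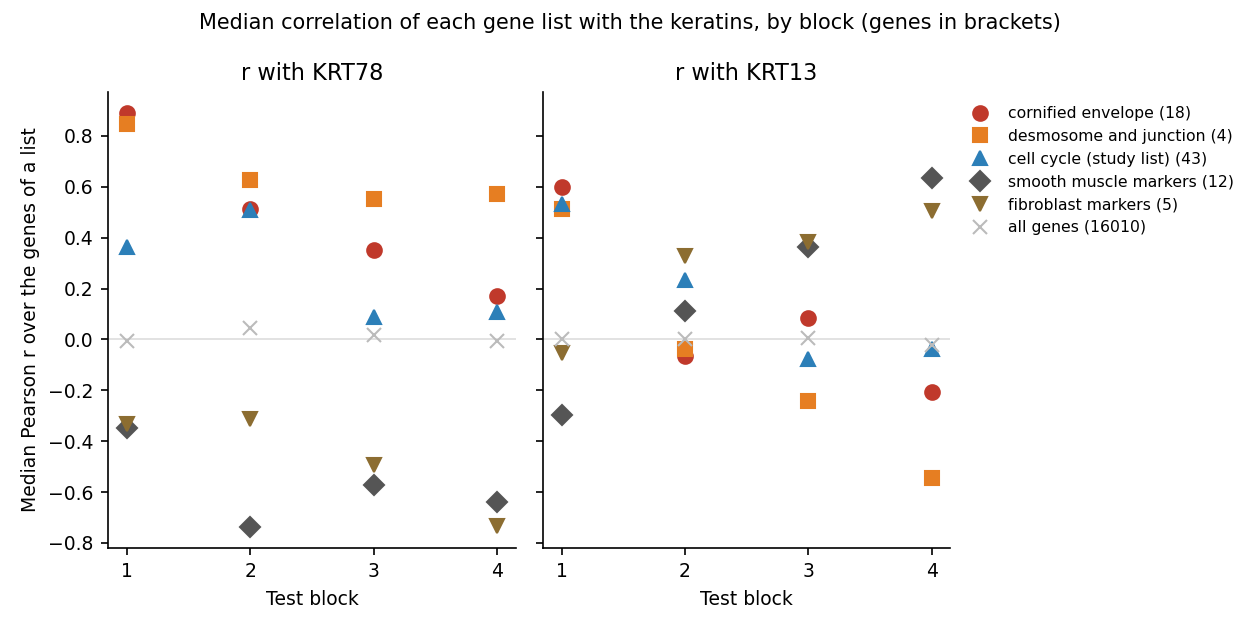
Median Pearson's *r* over the genes of a list (vertical axis) with *KRT78* (left) and *KRT13* (right) within each test block, with the number of genes in brackets. With *KRT78* the smooth muscle markers are negative and the junction genes positive in all 4 blocks, whereas with *KRT13* the smooth muscle markers run from -0.299 in block 1 to 0.636 in block 4 and the junction genes from 0.511 to -0.544.

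The only other keratin with a matched ID was *KRT6-B*, of a keratin type that rises in human epidermis during wound repair. Its lowest, median and highest levels were 9.11, 10.08 and 10.92 log2 CPM in block 1, and 9.21, 10.32 and 11.29 in blocks 2 to 4, which overlapped. It averaged 9.99 ± 0.58 in block 1 and 10.33 ± 0.52 in blocks 2 to 4 (SD), and the difference of -0.33 (SE 0.15) did not pass in limma (adjusted *p* = 0.073). Unlike for *KRT78*, the lowest mean was that of block 3 (9.92), beside 10.37 in block 2 and 10.64 in block 4. With the muscle mean as a covariate the difference of block 1 was -0.08 (SE 0.16, limma adjusted *p* = 0.78). The *r* of *KRT6-B* was 0.508 with *KRT78* and 0.291 with *KRT13* over the 62 sheep, 0.767 and 0.624 in block 1, and 0.222 and 0.237 in blocks 2 to 4. Like *KRT78*, it fell with the muscle mean (slope -0.64, SE 0.16, limma adjusted *p* = 0.000662).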

How the data were processed

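RNA of the full ventral rumen wall was depleted of ribosomal RNA by the authors and sequenced from stranded paired-end libraries. TopHat with Bowtie2 aligned the reads to the gene models of Ensembl for sheep, with models added at the epidermal differentiation complex, and HTSeq counted those that mapped uniquely. EdgeR and limma are also named in the processing notes of the submitters. The deposited values are log2 CPM from voom, the log2 of reads plus an offset of 0.5, scaled by a normalized library size. Reads recovered from these values were whole for 100% of them (tolerance 0.01 reads) and gave 4208032 to 12130080 reads a library. Depth limits precision little for the keratins, which rest on at least 827 reads in every library.

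All fits ran over 16011 genes in limma 3.58.1 (R 4.3.3, trend of variance on mean) with Benjamini-Hochberg adjustment and a threshold of 0.05. Block 1 was compared with blocks 2 to 4 because the study found its epithelial differentiation genes, a list that holds *KRT78*, lower there in these data. Single values used 2-sided permutation tests of 100000 permutations in Python 3.11.15 with numpy 2.4.6, scipy 1.17.1 and pandas 2.3.3, and plots used matplotlib 3.10.9. Heterogeneity of *r* was tested on Fisher-transformed values, with values standardized within blocks and sheep then permuted between blocks. Sheep oz151, whose labelled DMI is far below all others, was left out for DMI and CH4 yield. Alternatives were quantile and median-of-ratios scaling, a filter at 3 CPM in all libraries (9939 genes), limma without the trend, covariates, and leaving out block 1 or the 2 shallowest libraries. Depth as a covariate, the tests of heterogeneity, the comparisons of spread between the keratins, the correlations of each keratin with the muscle mean and the counts of correlated genes without block 1 were added after the data were seen. The fit was tested on simulated data.

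The keratins and gene lists were chosen with earlier results of these data known. Symbols cover 1224 genes, from the study's supplementary tables. Named genes were the 10 highest and 5 lowest by *r* with each keratin over all sheep and the 5 highest in blocks 2 to 4 among genes with a symbol, together with all matched members of the lists. Sequences were not used here.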

Additional observations from a re-analysis of the deposited data

Results flagged for a closer look

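The relation of *KRT78* with *KRT13* differed between test blocks by a permutation test of the difference itself (*p* = 0.00526), with *r* = 0.638, 0.00895, 0.163 and -0.627 in blocks 1, 2, 3 and 4. The relation of *KRT13* with the muscle mean also differed between blocks (permutation *p* = 0.0131), with *r* = -0.479, 0.0999, 0.210 and 0.542 in blocks 1 to 4. The muscle mean, depth and test period differ together between block 1 and the other blocks, and their parts in these differences cannot be told apart.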

How the results depend on the processing

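Of 137 alternative values over 27 results, 122 kept the direction and side of the threshold of the main value. Without block 1, the *F* of *KRT78* over blocks was 0.808, and the slopes of *KRT78* changed sign for CH4 production (0.0039 log2 per g/d), CH4 yield (-0.014 per g/kg) and DMI (0.080 per kg/d), as did that of *KRT13* for DMI (0.047), none of them past the threshold in either fit. With oz151 kept, the slope of *KRT13* on CH4 yield was 0.0017. The *r* of *KRT78* with *KRT13* was -0.0598 without block 1, -0.0238 without the 2 sheep farthest from the median of *KRT78* and -0.0194 as rho, but 0.307 (permutation *p* = 0.0159) with block means removed and 0.272 (permutation *p* = 0.0325) with the muscle mean held constant, so this relation has no settled sign. The heterogeneity statistics fell to 5.76 and 1.82 without block 1, against 14.6 and 8.51. Genes with *r* above 0.8 with *KRT78* numbered 1 without block 1 and 86 with block means removed, against 248. Subtracting the muscle mean from each library moved the median of all genes by -0.43 log2, and relative to it *KRT78* differed by -1.61 and *KRT13* by 0.31 in block 1 (-2.04 and -0.12 before that shift is taken off). The lower level and wider spread of *KRT78* in block 1 and its fall with the muscle mean held under every alternative run for them, with limma adjusted *p* for the level between 3.38e-07 and 0.00188. No paired analysis was possible because each sheep belongs to 1 block and replicate numbers are only names.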
